A study of Mus musculus with 60 samples.

Results

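The 8 genes Slc34a1, Slc34a3, Slc20a2, Pdzk1, Slc9a3r1, Slc9a3, Kl, and Fgfr1 cover phosphate transport, sodium-proton exchange, and the Klotho receptor complex of the renal tubule. They were chosen by name, their Ensembl gene rows were matched to GENCODE mouse symbols on GRCm38, and all 8 were among the 15546 genes retained from the 55335 gene rows. Their transcripts were measured by RNA-Seq in the kidneys of 60 male mice on a C57BL/6J background, 5 of each genotype at Zeitgeber time (ZT) 0, 4, 8, 12, 16, and 20 of a day with 12 h of light from ZT0 and 12 h of dark from ZT12. Mice named cKOt carried Bmal1 lox/lox, Pax8-rtTA, and LC1-Cre, so that doxycycline (DOX) induced excision in the Bmal1 gene (also Arntl), which encodes a core activator of the circadian clock. Control mice were Bmal1 lox/lox littermates without the 2 transgenes, and both genotypes received the same DOX treatment from 8 weeks of age, at 2 mg/ml in drinking water with 20 mg/ml sucrose for 2 weeks. Kidneys were taken 4 weeks after DOX. The Pax8 promoter limits rtTA in the kidney to the tubule, and the samples also held other renal cells.

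The proximal tubule reabsorbs most filtered phosphate through sodium-dependent cotransporters in its brush border membrane. PDZ proteins of the NHERF family hold these cotransporters and the sodium-proton exchanger NHE3 at that membrane, and parathyroid hormone and FGF23 lower phosphate uptake by removing the cotransporters from it. FGF23 acts through FGF receptors paired with Klotho, a membrane protein that in kidney is most abundant in the distal convoluted tubule. Much of this control acts on the proteins, which the transcript levels given here do not measure.

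Each library held 17791420 to 20906706 reads counted on genes (median 18545208.5), and values are given in counts per 1000000 counts (CPM) after TMM scaling of library size. Genotypes were compared by the mean over the 6 time points, and at each time point, with edgeR's quasi-likelihood test, fitted with 2 RUVs factors, which are estimated from differences between mice of the same group, and with p values adjusted by Benjamini and Hochberg over the 15546 genes. Log2 fold changes are cKOt minus control with their SE. The targeted gene Arntl ranged from 1.93 to 57.1 CPM (median 13.2) in the 30 control mice and from 14.6 to 26.8 CPM (median 20.4) in the 30 cKOt mice, with log2 fold changes of -0.99 ± 0.19 at ZT0 and 2.78 ± 0.26 at ZT8. Its reads were counted over the whole gene and do not measure the excision itself. The labels give the tissue as renal tubule and the methods give it as frozen kidney, and all 3 podocyte markers and all 4 markers of endothelium and fibroblasts were retained at the minimum of 1 CPM. Within their groups, 3 mice stood apart. The 8 genes were all highest in cKOt ZT8 replicate 4 and all lowest in cKOt ZT12 replicate 1. In control ZT16 replicate 1, 6 of the 8 were highest. Calls that change without one of these 3 mice are given with and without it. As many as 6 of the 8 were also lowest in control ZT8 replicate 2, cKOt ZT4 replicate 5, and cKOt ZT16 replicate 3. These mice were not left out singly.

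Of the 8 genes, 6 differed in mean expression between the genotypes (adjusted p below 0.05), against 50.0% of all genes tested. Slc34a3, Slc20a2, and Slc34a1 were higher in cKOt mice, as were 26.8% of all genes, and Pdzk1, Slc9a3r1, and Slc9a3 were lower, as were 23.2% of all genes. Kl and Fgfr1 did not pass the test. The differences were small, at most 30.2% for Slc34a3, yet 9.96% of all genes had a log2 fold change as large as that of Slc34a3, in either direction, 11.3% as large as that of Slc20a2, and 13.9% as large as that of Pdzk1. Over all genes, the median log2 fold change was 0.01 and its median size was 0.10.

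At single time points from ZT0 to ZT20, 5, 5, 5, 4, 4, and 3 of the 8 genes passed the test, against 12.1%, 12.5%, 19.9%, 21.0%, 19.8%, and 13.8% of all genes. Pdzk1, Slc34a3, and Slc20a2 passed at all 6. The CPM ranges of the genotypes, 5 mice against 5, did not overlap for 2, 3, 3, 3, 2, and 1 of the 8 genes, against 7.30%, 11.1%, 9.49%, 9.73%, 9.04%, and 6.86% of all genes in either direction. Pdzk1 was among them from ZT4 to ZT20, Slc20a2 at ZT0, ZT8, and ZT16, and Slc34a1, Kl, and Fgfr1 at none.

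**Figure D1:**
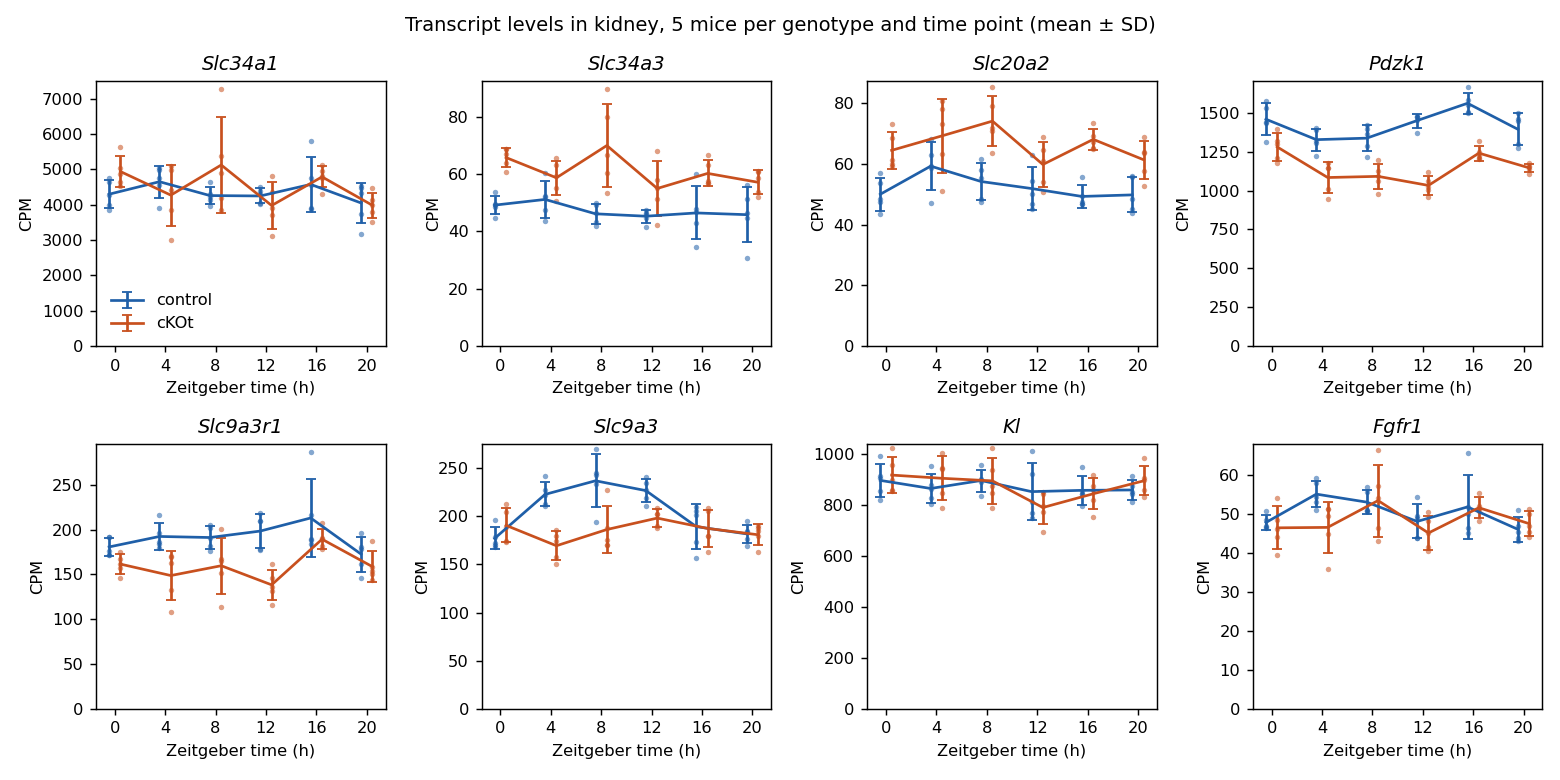
Transcript levels (CPM, linear axes from 0) of the 8 genes against Zeitgeber time in h, with 1 point per mouse and lines through the means ± SD of 5 mice for control (blue) and cKOt (orange). Slc34a3 and Slc20a2 lay higher in cKOt mice and Pdzk1 lower at all 6 time points, while the Kl levels of the genotypes overlapped throughout.

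Of the 3 cotransporters among the 8 genes, Slc34a1 was by far the most abundant transcript. Slc34a3 had the largest log2 fold change (0.38 ± 0.03), close to that of Slc20a2 (0.35 ± 0.03), and the gap between them was not tested. Slc34a1 encodes NaPi-IIa, the electrogenic cotransporter that carries most phosphate uptake in the adult proximal tubule, and Slc34a3 encodes the electroneutral NaPi-IIc, whose loss causes a hereditary form of hypophosphatemic rickets. Per kb of exon, the mean level over the 60 mice was 947 ± 145 CPM per kb (SD) for Slc34a1, 23.0 ± 4.39 for Slc34a3, and 9.54 ± 1.66 for Slc20a2. Over all 8 genes, this level per kb followed the order Slc34a1, Pdzk1 (361 ± 49.8), Kl (93.4 ± 7.65), Slc9a3r1 (91.1 ± 15.2), Slc9a3 (35.5 ± 4.69), Slc34a3, Slc20a2, and Fgfr1 (5.01 ± 0.574). Kl and Slc9a3r1, neighbours in this order, differed by less than their SDs.

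Slc34a3 (ENSMUSG00000006469, chr2:25228898-25234364 on the minus strand of GRCm38) was higher in cKOt mice at each time point. It ranged from 30.7 to 60.5 CPM (median 47.1) in control mice and from 42.2 to 89.5 CPM (median 60.4) in cKOt mice. The mean was 47.3 ± 6.21 CPM in control mice and 61.1 ± 9.00 CPM in the other genotype (SD, 30 mice per genotype), which gave a log2 fold change of 0.38 ± 0.03 (adjusted p = 4.95e-14, edgeR). The difference was largest at ZT8, where control mice had 46.3, 41.9, 49.3, 43.4, and 49.9 CPM and cKOt mice 66.8, 53.6, 60.2, 89.5, and 79.8 CPM. All 5 cKOt mice lay above all control mice at ZT8 and at ZT0. At ZT12, where the log2 fold change was lowest at 0.33 ± 0.08, control mice had 46.0, 44.9, 47.6, 46.5, and 41.6 CPM and cKOt mice 42.2, 55.3, 68.1, 57.9, and 51.3 CPM. There 1 cKOt mouse lay within the control range and the other 4 above it. Slc34a3 passed the test at all 6 time points (adjusted p from 3.8e-06 to 0.00554), as did 1.92% of all genes in this direction. Whether the difference varied over the day was asked with a test of the interaction of genotype and time, which Slc34a3 did not pass (adjusted p = 0.861). Within the 6 library batches, the mean log2 difference was 0.19 to 0.65, and it was positive in each. The calls at ZT4, ZT12, and ZT20 were lost without the RUVs factors (adjusted p from 0.0850 to 0.238), that at ZT4 also without replicate 1 or 5 of each group, and that at ZT12 also without replicate 3.

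Slc20a2 (ENSMUSG00000037656, chr8:22476788-22569612, plus strand) encodes PiT-2, a type III cotransporter that is widely expressed and contributes to phosphate uptake in the proximal tubule. Its level ranged from 43.6 to 68.4 CPM (median 49.8) in control mice and from 50.6 to 85.3 CPM (median 65.2) in cKOt mice. Mean expression rose from 52.4 ± 6.62 to 66.2 ± 8.61 CPM (SD, 30 mice per genotype), a log2 fold change of 0.35 ± 0.03 (adjusted p = 4.15e-15, edgeR). At ZT16, with the largest difference, control mice had 55.9, 46.9, 47.5, 49.6, and 46.7 CPM and cKOt mice 65.0, 67.4, 65.3, 69.4, and 73.5 CPM. The genotypes did not overlap at ZT0, ZT8, and ZT16. The difference passed the test at all 6 time points, down to 0.25 ± 0.07 at ZT12 (adjusted p = 0.00744), and the interaction was not past the threshold (adjusted p = 0.841). Within batches the log2 difference was 0.27 to 0.41. Without the RUVs factors the calls at ZT4, ZT12, and ZT20 were lost (adjusted p from 0.0559 to 0.210), and the call at ZT12 also without replicate 2 or 5 of each group.

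For Slc34a1 (ENSMUSG00000021490, chr13:55398187-55415592, plus strand), the difference was small and depended on the settings. It ranged from 3181 to 5804 CPM (median 4309.8) in control mice and from 3007 to 7284 CPM (median 4495) in cKOt mice, and the ranges of the genotypes overlapped at all 6 time points. The log2 fold change was 0.06 ± 0.03 (adjusted p = 0.0379, edgeR), 4.39% higher in cKOt mice. The call was kept in 6 of 18 alternatives. It was lost in 8 of 10 other settings of the test (adjusted p up to 0.475). With single replicate numbers or mice left out, its adjusted p was 0.0112 to 0.197, and the call was lost in 4 of these fits. One of them was the fit without cKOt ZT8 replicate 4 (log2 fold change 0.05, adjusted p = 0.111). At ZT0, the only time point past the threshold (adjusted p = 0.0491), control mice had 4746, 3991, 4265, 3842, and 4638 CPM and cKOt mice 5623, 4519, 4655, 5030.4, and 4865 CPM. There 3 of the 5 cKOt mice lay above all control mice, and the call was kept in 4 of 18 alternatives. It was lost in 9 of 10 other settings of the test (adjusted p up to 0.415), without replicate 1, 2, 3, or 4 of each group, and without cKOt ZT12 replicate 1 (adjusted p = 0.0538). At ZT8, Slc34a1 passed without replicate 1 of each group (0.21, adjusted p = 0.0162). Within batches the log2 difference was -0.16 to 0.14, positive in 5 of the 6.

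The ratio of Slc34a3 to Slc34a1 reads in a mouse does not depend on library size, and it was higher in cKOt mice. At ZT8, control mice had 11.0, 10.5, 11.5, 10.5, and 10.7 Slc34a3 reads per 1000 Slc34a1 reads, and cKOt mice 13.6, 13.9, 14.3, 12.3, and 14.8. The genotypes did not overlap at ZT8 and ZT12 and overlapped at the other 4 time points. Over the 30 mice of each genotype the ratio was 10.9 ± 1.18 in control and 13.7 ± 1.40 in cKOt mice (SD), a mean log2 difference of 0.33 or 1.25-fold (two-sided permutation test with genotypes exchanged within time points, p = 1e-05, the smallest that 100000 resamples can give). It is a ratio of reads and not of molecules, since the transcripts differ in length.

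**Figure D2:**
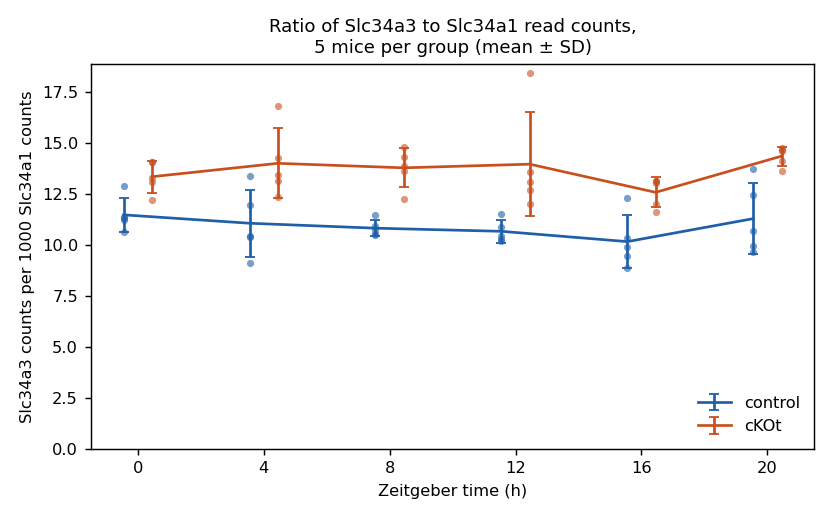
Slc34a3 counts per 1000 Slc34a1 counts (linear axis from 0) in each mouse against Zeitgeber time in h, with 1 point per mouse and the means ± SD of 5 mice for control (blue) and cKOt (orange). The cKOt mean lay above the control mean at all 6 time points.

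Both scaffold genes fell in cKOt mice, opposite to Slc34a3 and Slc20a2. Pdzk1 encodes NHERF3, a protein with several PDZ domains that binds NaPi-IIa and other brush border transporters, and Slc9a3r1 encodes NHERF1, which anchors NaPi-IIa and NHE3 to the cytoskeleton through ezrin. In bulk tissue, fewer cells of a type and less RNA per cell cannot be told apart. Beside this result, the summed level of 8 proximal tubule markers was 10207 to 14025 CPM in control and 9034 to 11499 CPM in cKOt mice, with 5 of the 8 lower in cKOt mice, 2 higher (Slc5a2 and Slc5a12), and 1 not past the threshold. Of all genes, 23.2% were lower and 26.8% higher. The sum leans on abundant genes such as Slc27a2, which went from 4338 CPM in control to 3287 CPM in cKOt mice. The authors report less Slc27a2 transcript and protein in cKOt kidneys. The log2 fold change was -0.09 ± 0.03 for Lrp2, and -0.08 ± 0.04 and not past the threshold for Cubn. None of the markers was at 0, and their part in the difference was not tested.

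Pdzk1 (ENSMUSG00000038298, chr3:96829284-96870926, plus strand) separated the genotypes most clearly. It ranged from 1217 to 1669 CPM (median 1439) in control mice and from 944 to 1399 CPM (median 1149.5) in cKOt mice, with means of 1422 ± 110.2 and 1146 ± 111 CPM (SD, 30 mice per genotype). Expression fell by 19.3%, with a log2 fold change of -0.31 ± 0.02 (adjusted p = 5.32e-19, edgeR). At ZT12, control mice had 1477, 1476, 1371, 1457, and 1472 CPM and cKOt mice 958, 1064, 1005, 1118, and 1023 CPM. All cKOt mice lay below all control mice at ZT12, and likewise at ZT4, ZT8, ZT16, and ZT20, while at ZT0 3 of the 5 cKOt mice lay below the control range. Pdzk1 passed the test at all 6 time points, as did 2.41% of all genes in this direction. Its log2 fold change ran from -0.20 ± 0.05 at ZT0 to -0.47 ± 0.05 at ZT12. The interaction was not past the threshold (adjusted p = 0.128). Within batches the log2 difference was -0.34 to -0.24. The calls at all 6 time points were kept without the RUVs factors, and the call at ZT0 was lost without replicate 2 of each group (adjusted p = 0.155).

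Slc9a3r1 (ENSMUSG00000020733, chr11:115163341-115181181, plus strand) fell by an amount that varied over the day. It ranged from 146 to 287 CPM (median 187) in control mice and from 108 to 207 CPM (median 162) in cKOt mice. Mean expression fell by 15.8%, from 191 ± 24.5 to 159 ± 24.5 CPM (SD, 30 mice per genotype), with a log2 fold change of -0.25 ± 0.02 (adjusted p = 1.22e-16, edgeR). At ZT12, control mice had 209, 209, 218, 177, and 178 CPM and cKOt mice 116, 136, 146, 162, and 132 CPM. No cKOt mouse reached the control range, as was also the case at ZT4, and the log2 fold change was -0.45 ± 0.05. At ZT20, control mice had 146, 179, 162, 196, and 181 CPM and cKOt mice 158, 154, 144, 188, and 150.3 CPM. These ranges overlapped, and the log2 fold change of -0.10 ± 0.05 did not pass the test (adjusted p = 0.172), unlike at the other 5 time points. The interaction was past the threshold (adjusted p = 0.00164), as it was for 3.08% of all genes. It was lost without the RUVs factors (adjusted p = 0.528) and with the library batch in their place (adjusted p = 0.389). Without the factors, the calls at ZT0, ZT8, and ZT16 were lost too (adjusted p from 0.116 to 0.488), with 1 factor those at ZT0 and ZT4, and without replicate 1 of each group that at ZT16. Within batches the log2 difference of the means was -0.48 to -0.13.

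Slc9a3 (ENSMUSG00000036123, chr13:74121457-74169442, plus strand) was lower in cKOt mice at ZT4 and ZT8 and did not differ detectably from ZT16 to ZT0. It encodes NHE3, the apical exchanger that takes up sodium and secretes protons in the proximal tubule and so drives much of bicarbonate recovery. At ZT4, control mice had 212, 227, 210.4, 222, and 242 CPM and cKOt mice 174, 185, 157, 150.5, and 179.7 CPM. All cKOt mice lay below all control mice, and the log2 fold change was -0.39 ± 0.08 (adjusted p = 0.000171, edgeR). At ZT8, control mice had 233, 245, 243, 194, and 269 CPM and cKOt mice 187, 171, 170.3, 227, and 176 CPM. The cKOt mouse at 227 CPM, replicate 4, lay within the control range and the other 4 below it, and the log2 fold change was -0.36 ± 0.07 (adjusted p = 0.000154). At ZT12, control mice had 227, 241, 219, 235, and 211 CPM and cKOt mice 187, 203, 190.0, 208, and 202 CPM. The ranges did not overlap, but the log2 fold change of -0.18 ± 0.07 did not pass the test (adjusted p = 0.0755), and without cKOt ZT8 replicate 4 it did (-0.19, adjusted p = 0.0487).

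From ZT16 to ZT0 the Slc9a3 levels of the genotypes overlapped. At ZT20, control mice had 184, 169, 176, 184, and 195 CPM and cKOt mice 189.5, 188, 184, 179.7, and 163 CPM, and at ZT0 168, 171, 178, 172, and 196 CPM and 212, 173, 189, 205, and 174 CPM. The ranges overlapped at ZT16, ZT20, and ZT0, with log2 fold changes of -0.03 ± 0.07, 0.02 ± 0.07, and 0.10 ± 0.07 and adjusted p from 0.444 to 0.895. The interaction was past the threshold (adjusted p = 0.00194), except without replicate 3 of each group (adjusted p = 0.0578). Averaged over the day, Slc9a3 fell by 9.36%, from 206 ± 28.8 CPM in control to 185 ± 17.7 CPM in cKOt mice (SD, 30 mice per genotype), with a log2 fold change of -0.14 ± 0.03 (adjusted p = 7.63e-05). Within batches it was -0.34 to -0.01, and negative in all 6.

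**Figure D3:**
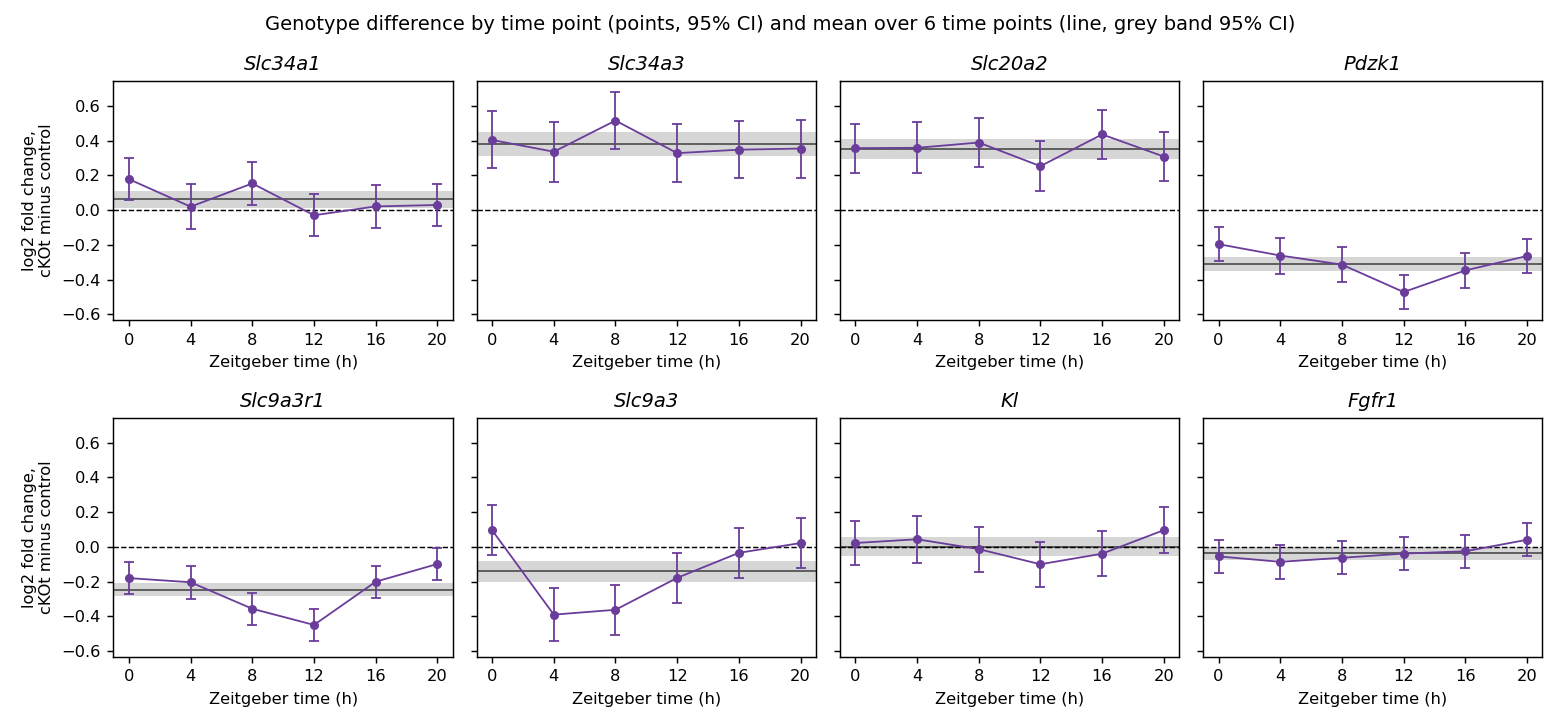
Log2 fold change of cKOt minus control for each gene at each Zeitgeber time in h (points with 95% confidence intervals), and for the mean over the 6 time points (horizontal line, grey band with the 95% confidence interval), from the edgeR fit of 60 mice. Slc34a3 and Slc20a2 stayed above 0, Pdzk1 stayed below 0, and Slc9a3 was lowest at ZT4 and ZT8 and near 0 from ZT16 to ZT0.

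BMAL1 binds DNA with CLOCK at the E-box CACGTG, and PAR bZIP factors of the clock output bind the D-box TTATGTAA. The 250 bases before the transcription start of the 2 genes whose difference varied over the day are shown as RefSeq gives them on GRCm38.p6, 5′ to 3′ on the strand of the gene, with the E-box in capitals. They lie at chr13:74121163-74121412 (plus strand) for Slc9a3 and at chr11:115163091-115163340 (plus strand) for Slc9a3r1.
Slc9a3: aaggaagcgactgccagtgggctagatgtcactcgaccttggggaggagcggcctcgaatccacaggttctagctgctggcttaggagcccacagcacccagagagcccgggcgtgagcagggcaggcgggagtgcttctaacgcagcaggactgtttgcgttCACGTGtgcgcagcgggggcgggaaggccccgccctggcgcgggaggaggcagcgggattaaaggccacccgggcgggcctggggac
Slc9a3r1: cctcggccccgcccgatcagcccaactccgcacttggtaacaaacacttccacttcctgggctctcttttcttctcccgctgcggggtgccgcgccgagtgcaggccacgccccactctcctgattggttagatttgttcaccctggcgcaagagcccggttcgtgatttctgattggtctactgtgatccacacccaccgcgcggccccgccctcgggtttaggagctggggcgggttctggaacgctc
The Slc9a3 window held 1 E-box, from 87 to 82 bases before the start, and the Slc9a3r1 window held none. The RefSeq table held 7 such windows for 6 of the 8 genes, without Slc20a2 and Fgfr1. Searched on both strands, the E-box was found in 1 of the 7 windows, and the variant CACGTT and the D-box in none. Of 32851 windows in the table, 6.02% held the E-box, 3.85% the variant, and 0.819% the D-box. A match is a string of letters and was not tested for binding.

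Kl and Fgfr1, which encode Klotho and an FGF receptor that pairs with it, showed no detectable difference in mean expression. Kl (ENSMUSG00000058488, chr5:150952607-150993817, plus strand) ranged from 748 to 1011 CPM (median 858) in control mice and from 691 to 1022 CPM (median 856) in cKOt mice. The means were 869.7 ± 63.3 and 873 ± 79.7 CPM (SD, 30 mice per genotype), and the log2 fold change was below 0.01 in size, with a 95% confidence interval from -0.05 to 0.05 (adjusted p = 0.977, edgeR). At ZT12, with the lowest estimate, control mice had 748, 919, 766, 1011, and 811 CPM and cKOt mice 691, 793, 772, 841, and 848 CPM. The genotypes overlapped at this and at all other time points, and no time point passed the test (adjusted p from 0.316 to 0.922). Within batches the log2 difference was -0.14 to 0.11, positive in 3 and negative in 3. Beside Kl, 4 of 5 markers of the distal convoluted tubule were higher in cKOt mice, against 26.8% of all genes. The summed level of the 5 was 1275 to 1786 CPM in control and 1366 to 2025 CPM in cKOt mice. Fgfr1 (ENSMUSG00000031565, chr8:25513654-25575718, plus strand) ranged from 43.1 to 65.8 CPM (median 50.5) in control mice and from 36.1 to 66.6 CPM (median 48.4) in cKOt mice. Its log2 fold change was -0.04 ± 0.02 (95% confidence interval -0.08 to 0.00, adjusted p = 0.103), and the genotypes overlapped at all 6 time points. With DESeq2 it passed the threshold (-0.05, adjusted p = 0.0372). In edgeR, mean expression also passed with 1 of the replicate numbers left out of each group (adjusted p = 0.0292). At ZT4, Fgfr1 passed with the library batch in place of the RUVs factors (-0.27, adjusted p = 0.0287), against -0.09 and not past the threshold with them.

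Time of day changed 5 of the 8 transcripts in control mice (30.6% of all genes) and 4 of the 8 in cKOt mice (26.6% of all genes), by F tests over the 6 time points. Slc20a2, Pdzk1, and Slc9a3r1 passed in both genotypes, Slc9a3 and Fgfr1 in control mice, and Slc34a1 in cKOt mice. Slc9a3 had the clearest rhythm of the 8 in control mice (adjusted p = 9.3e-07), with a mean of 237 ± 27.3 CPM at ZT8 and 177 ± 11.4 CPM at ZT0 (SD, n = 5), whereas in cKOt mice the means ran from 169 ± 14.9 CPM at ZT4 to 198 ± 8.95 CPM at ZT12 and the F test was not past the threshold (adjusted p = 0.146). Curves with a period of 24 h were then compared by the Bayesian information criterion (BIC), and a transcript was assigned to the model with a weight of at least 0.65. Slc9a3 was assigned to loss of rhythm in cKOt mice (weight 0.896), as were 6.25% of all genes, with a fitted amplitude from peak to trough of 0.47 on the log2 scale and a peak at ZT8.54 in control mice, against an amplitude of 0.12 in cKOt mice. It kept this model in all 18 other settings.

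The scaffold genes were both assigned to an altered rhythm, as were 2.37% of all genes. The peak of Slc9a3r1 was at ZT12.1 in control and at ZT18.9 in cKOt mice (amplitudes 0.23 and 0.16 on the log2 scale, weight 0.989), and that of Pdzk1 at ZT16.6 and ZT21.2 (amplitudes 0.18 and 0.22, weight 0.861). In control mice the lowest mean of Pdzk1 was 1328 ± 70.9 CPM at ZT4 and in cKOt mice 1033 ± 60.6 CPM at ZT12 (SD, n = 5). Slc9a3r1 had its lowest mean at ZT20 in control (173 ± 19.4 CPM) and at ZT12 in cKOt mice (138 ± 17.0 CPM). Without the RUVs factors Pdzk1 was unassigned and Slc9a3r1 was assigned to no rhythm in either genotype, and with the library batch in their place both were unassigned. Pdzk1 was also unassigned without replicate 1, 4, or 5 of each group. Slc20a2 was assigned to the same rhythm in both genotypes (weight 0.975), as were 25.2% of all genes, with peaks at ZT6.45 and ZT6.18, and Fgfr1 likewise (weight 0.694), although Fgfr1 kept this model in 7 of 18 other settings and lost it without any of the 3 mice that stood apart. Slc34a1, Slc34a3, and Kl were not assigned, as was the case for 28.7% of all genes. Without cKOt ZT8 replicate 4, Kl was assigned to a rhythm in cKOt mice alone, and without control ZT16 replicate 1, Slc34a3 to the same rhythm in both genotypes. Of these, Slc34a1 passed the F test in cKOt mice (adjusted p = 0.0407), as it did in 8 of 18 alternatives, and did not, for example, with 1 RUVs factor (adjusted p = 0.149), with limma-trend (0.0597), without cKOt ZT8 replicate 4 (0.0814), or without cKOt ZT12 replicate 1 (0.0520). The F test of Slc20a2 held in 11 of 18 alternatives in control mice and in 10 of 18 in cKOt mice. Both calls were lost without the RUVs factors (adjusted p = 0.227 and 0.109), with the library batch in their place (0.239 and 0.156), and with no filter (0.0507 and 0.0629). The call in control mice was also lost without control ZT16 replicate 1 (adjusted p = 0.0625), and that in cKOt mice without cKOt ZT8 replicate 4 (0.0516). In control mice, the F tests of Slc9a3r1 and Fgfr1 were lost without the RUVs factors (adjusted p = 0.25 and 0.14) and with the library batch (0.140 and 0.0915).

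Over the 12 group means of log2 CPM, Slc34a3 and Slc20a2 ran together (Pearson's r = 0.93) and so did Pdzk1 and Slc9a3r1 (r = 0.88), while Slc34a3 and Pdzk1 ran in opposite directions (r = -0.71). These are descriptions over 12 points that share libraries and the genotype difference itself. Among genes with a mean of at least 5 CPM, those whose group means were most like those of each gene were Pex14 (r = 0.95) and Setd1b (r = 0.95) for Slc34a1, Abca3 (r = 0.97) and Slc5a11 (r = 0.97) for Slc34a3, and Rnd2 (r = 0.96) and Echdc3 (r = 0.95) for Slc20a2. For the scaffolds they were Sec13 (r = 0.98) for Pdzk1, and Tha1 (r = 0.97) and Rtkn (r = 0.96) for Slc9a3r1. For Slc9a3 they were Ciart (r = 0.93) and Tef (r = 0.91), both genes of the circadian clock and its output. The nearest gene was less alike for Kl, with Myct1 (r = 0.80), than for Fgfr1, with Brat1 (r = 0.93) and Phldb1 (r = 0.92).

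Of 46 retained genes in 8 lists of related transporters, partners, and hormones, 19 were higher and 13 lower in cKOt mice and 14 did not pass the test, against 26.8% higher and 23.2% lower of all genes, with a median log2 fold change of 0.02, against 0.01 over all genes. The lists follow by role, and in each the 2 genes with the largest change past the threshold are named.

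The other phosphate transporters included the largest changes of all lists. Of 6 genes, 2 rose and 3 fell (median log2 fold change -0.11). Slc34a2, which encodes NaPi-IIb, the cotransporter of the intestine, was at 4.53 ± 1.20 CPM in control mice against 12.7 ± 3.42 CPM in cKOt mice (SD, 30 mice per genotype), a log2 fold change of 1.49 ± 0.07 (adjusted p = 1.3e-26, edgeR), and it was higher at all 6 time points, from 0.88 to 1.85. Its counts were 48 to 401 per mouse. Slc17a2 rose by 1.32 ± 0.17 at 0 to 29 counts per mouse. The 3 that fell were Slc20a1, the gene of PiT-1 (-0.43 ± 0.08), Slc17a1 (-0.43 ± 0.02), and Slc17a3 (-0.20 ± 0.02), which were chosen after their values were seen, while Xpr1, the gene of a phosphate exporter, was at -0.01 ± 0.02 and not past the threshold.

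Of 8 other genes of PDZ scaffolding and brush border anchoring, 4 rose, 1 fell, and 3 did not pass (median 0.04). The largest changes were those of Shank2, which encodes a scaffold that binds NHE3 and NaPi-IIa (0.33 ± 0.04), and Pdzk1ip1, which encodes a membrane protein that binds PDZK1 (0.10 ± 0.03). Both were opposite in sign to Pdzk1 and Slc9a3r1. Of 9 other sodium-proton exchangers and NHE3 partners, 6 rose, 2 fell, and 1 did not pass (median 0.13). Slc9a2, the gene of the exchanger NHE2, fell (-0.34 ± 0.03, from 68.6 to 54.3 CPM), and Slc9a8, the gene of NHE8, rose (0.32 ± 0.04, from 258 to 318 CPM). NHE8 is another exchanger of the proximal brush border.

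Of 8 FGF receptors and signalling genes beside Fgfr1, 1 rose, 2 fell, and 5 did not pass (median -0.02). The receptor gene Fgfr2 rose (0.15 ± 0.04), and Spry4, which encodes an inhibitor of receptor tyrosine kinase signalling, fell (-0.30 ± 0.06). Of the Klotho relatives and the sheddases that release Klotho from the membrane, 4 of 5 genes were retained, of which 2 rose and 2 did not pass (median 0.04). They were Bace1 (0.20 ± 0.02) and Adam17 (0.07 ± 0.02). Klb, which encodes beta-Klotho, was not retained, at 0 to 10 counts per mouse.

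Of a list with FGF23, its processing, and Enpp1, 3 of 5 genes were retained, of which 1 rose and 2 fell, Enpp1 among them (median -0.47). Enpp1, which encodes an ectoenzyme that makes pyrophosphate, fell from 52.6 ± 5.58 to 36.0 ± 3.90 CPM (-0.55 ± 0.03), and Galnt3, whose enzyme glycosylates FGF23 and so protects it from cleavage, fell from 104 ± 15.3 to 75.5 ± 11.2 CPM (-0.47 ± 0.03). Phex had 0 to 6 counts per mouse and Fgf23, a hormone gene of bone, had 0 in every mouse, which allows up to 0.143 to 0.169 CPM per library (3 counts, counting error only). Of 5 genes of parathyroid hormone signalling, 2 rose, 1 fell, and 2 did not pass (median 0.00, rounded). The receptor gene Pth1r fell (-0.22 ± 0.02, lower at all 6 time points), and Adcy6, an adenylyl cyclase gene, rose (0.16 ± 0.02). All 3 genes of the vitamin D enzymes and receptor passed the test, the receptor gene higher and the 2 enzyme genes lower in cKOt mice. Cyp27b1, which encodes the enzyme that makes active vitamin D, was at 5.12 ± 3.20 CPM in control mice against 2.27 ± 1.48 CPM in cKOt mice (SD, -1.18 ± 0.18), and Cyp24a1, whose enzyme breaks it down, was at 86.1 ± 68.9 CPM in control mice against 60.4 ± 58.6 CPM in cKOt mice (SD, -0.56 ± 0.19). Both varied widely over the 60 mice, which span 6 time points, with 108 to 5978 counts of Cyp24a1 per mouse. Cyp24a1 was assigned to the same rhythm in both genotypes, so time of day is part of its spread. At single time points, the log2 fold change was -2.07 to -0.14 for Cyp27b1 and -0.78 to -0.29 for Cyp24a1. The interaction of Cyp27b1 was not past the threshold (adjusted p = 0.147, edgeR). The call of Cyp24a1 was lost without replicate 1 (adjusted p = 0.0755) or replicate 5 (0.106) of each group.

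**Figure D4:**
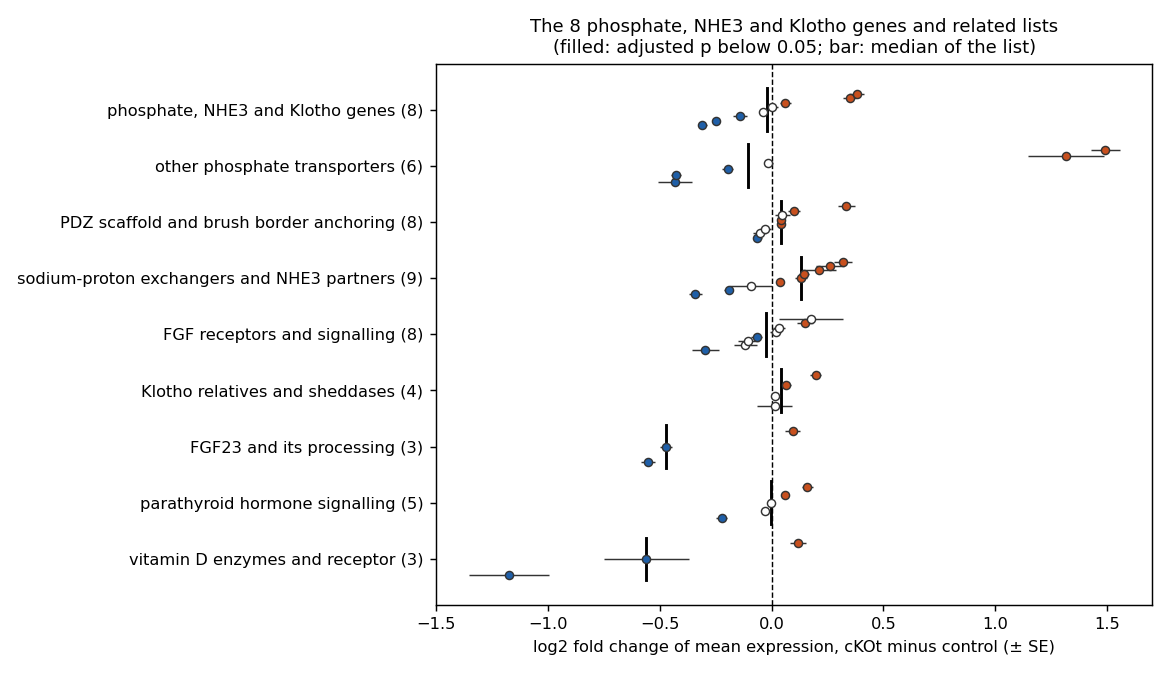
Log2 fold change of mean expression, cKOt minus control (± SE), for the retained genes of each list, with the number of genes in brackets. Filled points passed the test (adjusted p below 0.05, orange higher and blue lower in cKOt mice) and the black bar is the median of the list. Slc34a2 and Slc17a2 lie farthest to the right and Cyp27b1 farthest to the left.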

How the data were processed

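Whole-number counts of reads per Ensembl gene, 1 table per mouse, were deposited by the authors without normalization. Per the labels, they trimmed stranded poly(A) single reads with cutadapt (version 1.8), aligned them with STAR (version 2.5.3a) to GRCm38, and counted them with HTSeq (version 0.9.1). Lines of the counter that name no gene were left out. They made up 7.17% to 10.6% (no gene) and 0.953% to 1.27% (ambiguous) of the sum of these reads and those counted on genes. Genotype, time point, and replicate number were taken from the labels.

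Genes reaching 1 CPM in 1 or more samples were kept (99.9% of counts). Counts were fitted with edgeR (version 4.0.16, R version 4.3.3), using TMM library sizes, 12 genotype-by-time groups, and 2 RUVs factors. The TMM factors were 0.908 to 1.02 in control and 0.989 to 1.07 in cKOt mice, and so tended to be higher in cKOt mice. Small differences, such as those of Slc34a1, Kl, and Fgfr1, rest in part on this scaling. RUVs, written anew from its description, estimates unwanted variation from the spread of mice within groups, here with a prior count of 2 for logCPM and all genes as controls. The quasi-likelihood F test was used for the mean difference, for each time point, for the interaction, and for time within a genotype, with Benjamini-Hochberg adjustment over all retained genes and a threshold of 0.05. All 60 mice shared 1 estimate of the spread, also at a single time point with 5 against 5 mice. For rhythms, the 5 models of dryR were weighed by BIC on RUVs-corrected logCPM values, and correlations, CPM values, within-batch differences, and the ratio used values without RUVs correction. Library batch was read from the supplementary sample list, which marks 1 deposited sample (cKOt ZT16 replicate 4) for removal, and that sample was kept. The authors chose 5 mice per group from a larger number, and the others are not analysed here. They chose by RNA quality and by distance from the other replicates in plots of overall expression. Such a choice can narrow the spread within groups, on which the tests, SDs, and ranges rest. Of 120 pairs of replicates, none agreed within counting noise. The fits were tested on simulated counts.

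The 8 genes, the related lists, and the tests were chosen with earlier results of these data known. Named genes are the 8, Arntl, the 2 largest changes past the threshold in each list, list genes not retained, and for each of the 8 the 2 genes most alike, of which 1 for Pdzk1 and 1 for Kl are not reported here. Slc20a1, Slc17a1, Slc17a3, Xpr1, and the marker genes named were added after their values were seen. Alternatives were DESeq2 size factors, the DESeq2 (version 1.42.0) test, limma-trend (limma version 3.58.1), no filter, filterByExpr, no RUVs factors or 1, library batch in their place, a replicate block, BIC weights of 0.5 and 0.8, and leaving out the marked sample or each replicate number. Leaving out the 3 mice that stood apart was added after seeing the data.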

Additional observations from a re-analysis of the deposited data

Results flagged for a closer look

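Chance alone sets about 1 in 20 groups of 5 mice apart in this way, and 1 of the 96 groups of 5 mice tested (8 genes in 12 groups) held a mouse that stood apart from the other 4. In control mice at ZT12, Pdzk1 was at 1371 CPM in replicate 3 and at 1457 to 1477 CPM in the other 4, and the gap was 0.815 of the range of the group, above the critical value of 0.71. That mouse still lay above all 5 cKOt mice.

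The genotype difference varied between time points for 2 of the 8 genes by the test of the interaction in edgeR. For Slc9a3r1 the adjusted p was 0.00164, with all 6 log2 fold changes negative, from -0.45 at ZT12 to -0.10 at ZT20. For Slc9a3 the adjusted p was 0.00194, with log2 fold changes from -0.39 at ZT4 to 0.10 at ZT0.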

How the results depend on the processing

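The mean differences of Slc34a3, Slc20a2, Pdzk1, Slc9a3r1, and Slc9a3 kept their direction and passed the test in all 18 alternatives, and so did the ratio of Slc34a3 to Slc34a1 in all of its own. That of Slc34a1 was no longer past the threshold with DESeq2 size factors (0.0519), the DESeq2 test (0.0516), limma-trend (0.0610), no filter (0.0573), filterByExpr (0.0580), no RUVs factors (0.0487), 1 factor (0.0657), and the library batch in their place (0.0486). Fgfr1 passed with DESeq2 size factors (-0.0478), the DESeq2 test (-0.0486), and 1 of the replicate numbers left out of each group. The estimate of Kl, near 0, changed sign with DESeq2 size factors (-0.010), the DESeq2 test (-0.0094), no filter (-0.0044), filterByExpr (-0.0039), the library batch (-0.00081), and without the marked sample (-0.00080).

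Most other changes came with the RUVs factors left out or replaced by the library batch. Genes past the threshold were then 263 and 312 for the interaction, 983 and 1130 at ZT0, 2013 and 1991 at ZT8, 1853 and 1829 at ZT16, and 1407 and 1419 at ZT20, and 3091 at ZT4 with the batch, against 479, 1884, 3095, 3071, 2140, and 1950 with 2 factors. Of the 8 genes, 1 passed the interaction in both settings, 3 passed at ZT0 (also with 1 factor), 3 at ZT4 without the factors, 2 at ZT12, 1 at ZT20, 2 for time in control mice, and 1 was assigned a rhythm. The cause was not tested. Estimates not past the threshold changed sign at ZT4 for Slc34a1 (-0.0027 with no filter, -0.12 without the factors, -0.15 with the batch), at ZT16 for Slc34a1 without the marked sample (-0.0085), at ZT20 for Slc34a1 (-0.024 without the factors, -0.049 with 1, -0.012 with the batch) and Slc9a3 (-0.0070, -0.0098, and -0.015), and at ZT8 for Kl with the batch (0.012) and Fgfr1 without the factors (0.011).

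With single replicates or mice left out, 233 to 485 genes and 1 to 2 of the 8 passed the interaction, 3 to 5 of the 8 passed at ZT0, and 2608 to 4199 genes and 1 to 4 of the 8 passed for time in cKOt mice. The mean difference was then 0.042 to 0.084 for Slc34a1, -0.017 to 0.011 for Kl, and -0.057 to -0.016 for Fgfr1. At single time points, Slc34a1 was at -0.048 to 0.072 (ZT4), -0.079 to 0.014 (ZT12), and -0.047 to 0.11 (ZT16), Slc9a3 at -0.085 to 0.041 (ZT16) and -0.046 to 0.088 (ZT20), Kl at -0.0083 to 0.047 (ZT0), -0.016 to 0.10 (ZT4), -0.060 to 0.0065 (ZT8), and -0.079 to 0.043 (ZT16), and Fgfr1 at -0.084 to 0.027 (ZT12) and -0.052 to 0.030 (ZT16). Depth limits the value of Slc17a2, at 0 to 29 counts per mouse.

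Replicate numbers did not pair the mice. Residuals of mice with the same number in different groups correlated with a mean r of 0.0043 over 330 pairs, against -0.0010 over 1320 pairs with different numbers, and 14 of 60 mice correlated best with their own number. With the replicate number as a block, 7734 genes and 6 of the 8 passed for mean expression and 465 genes and 2 of the 8 for the interaction. Of the calls on the 8 genes, those of Slc34a1 at ZT0 (adjusted p = 0.0581) and over time in cKOt mice (0.0561) were lost, and Kl passed over time in cKOt mice (0.0478). Slc34a3 was assigned to the same rhythm in both genotypes and Kl to a rhythm in cKOt mice alone. The block changed no other call on them.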

Other observations

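The 3 mice that stood apart differed in the same way in the summed level of the 8 proximal tubule markers. In cKOt ZT8 replicate 4 it was 11499 CPM, against 9902 to 11022 CPM in the other 4 mice of its group, and in control ZT16 replicate 1 it was 13614 CPM, against 11060 to 12107 CPM. In cKOt ZT12 replicate 1 it was 9986 CPM, against 10080 to 11149 CPM. Each of the 3 mice thus lay outside the range of its group for these markers. For cKOt ZT8 replicate 4 and cKOt ZT12 replicate 1, this was the side on which all 8 genes lay. For control ZT16 replicate 1, it was the side of 6 of the 8. The summed level of the 3 thick ascending limb markers was within the range of the group for cKOt ZT8 replicate 4 (3730 CPM, against 3627 to 4140) and cKOt ZT12 replicate 1 (3940 CPM, against 3574 to 4128) and below it for control ZT16 replicate 1 (4595 CPM, against 4799 to 5095). The mice in which 6 of the 8 genes were lowest were not compared in this way. The part of these markers in the levels of the 8 genes was not tested.

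Some markers of other renal cell types differed between the genotypes, as did 50.0% of all genes. The 3 thick ascending limb markers split, with Slc12a1 and Cldn10 higher and Umod lower in cKOt mice. All 3 leukocyte markers and all 4 markers of endothelium and fibroblasts were lower in cKOt mice, against 23.2% of all genes. Their median log2 fold changes were -0.25 and -0.11. None of the 3 podocyte markers passed the test (median -0.03). Of the 3 collecting duct markers, 1 was higher and 2 did not pass, and of the 3 injury markers, 1 was higher, 1 lower, and 1 did not pass. Whether cell composition differed was not tested.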
